A study of Mus musculus with 7 samples.

Results

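The switch between burning carbohydrate and burning fat was followed here through 9 genes in mouse duodenum, chosen by symbol from a table of 14795 genes. They are the 4 pyruvate dehydrogenase (PDH) kinases Pdk1, Pdk2, Pdk3 and Pdk4, the 2 PDH phosphatases Pdp1 and Pdp2, and 3 genes known to be induced by fasting in other tissues, Ucp2, Txnip and Angptl4. All 9 were found in the table under these symbols, and all 9 had more than 1 CPM (read counts scaled to the size of the library) in at least 3 libraries, the limit for testing that 13399 genes passed.

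RNA was sequenced from duodena of C57BL/6 mice, 3 of genotype Ppara lox/lox and 4 of genotype Ppara I-KO. Both genotypes carry floxed Ppara, the gene of the fatty acid-activated receptor PPARα, and in I-KO mice the Villin-Cre transgene, active in the intestinal epithelium, deletes it. By the sample labels, food was taken away for 6 h, given back, and tissue was taken after 6 h of refeeding. The study's methods instead describe a fast before sacrifice, unless specified otherwise, and name no refeeding. Per the study's methods and legends the mice were males fed a high-fat diet (HFD) for 8 weeks and the controls were littermates, while their age is not given. Cre is carried only by the I-KO mice, so the effects of Cre and of PPARα loss cannot be told apart. Whole duodenum also holds cells in which this Cre is not active, and in such bulk samples fewer cells of a type and less RNA per cell cannot be told apart. The comparison between the genotypes asks whether loss of epithelial PPARα altered the RNA of these genes. By the labels, feeding state was the same for all mice, and it was not compared.

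The PDH complex turns pyruvate into acetyl-CoA in mitochondria and so commits carbon from glucose to oxidation. PDH kinases phosphorylate the complex and switch it off, which spares glucose when fat is burnt, and the phosphatases switch it back on. Pdk4 and Angptl4 are textbook targets of the PPAR receptors, which pair with RXR receptors on repeats of the hexamer AGGTCA. Ucp2 encodes a carrier of the inner mitochondrial membrane, Txnip a protein of the arrestin family that binds thioredoxin and limits glucose uptake, and Angptl4 a secreted inhibitor of lipoprotein lipase.

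The libraries held from 20745155 to 25865823 counted reads, as estimated from the value of 1 read in each. Ppara itself did not separate the genotypes, with 53.4, 49.3 and 63.2 CPM in lox/lox mice 1 to 3 and 33.05, 40.6, 47.5 and 69.9 CPM in I-KO mice 1 to 4. Its total includes reads outside the floxed part and from cells without Cre and so does not check the deletion, but the library labelled I-KO 4 held the most Ppara of all 7. Pancreatic acinar genes stood apart in 2 libraries, with a sum over 12 genes of 405 CPM in I-KO 1, 91.8 CPM in lox/lox 2 and between 25.6 and 40.8 CPM in the other libraries. All 12 were highest in I-KO 1, and all 8 smooth muscle markers were highest there among the I-KO libraries. Among the lox/lox libraries, all 12 acinar genes and all 8 smooth muscle markers were highest in lox/lox 2. The 10 enterocyte and duodenum markers, among them Vil1, Epcam and the duodenal factor Pdx1, were all in the table, and they summed to between 40147 and 48480 CPM in lox/lox and between 40779 and 54711 CPM in I-KO libraries. Adipocyte markers summed to between 275 and 304 CPM in lox/lox and between 251 and 331 CPM in I-KO libraries, with Cidec and Lipe the largest parts. Cfd ranged more widely, from 1.14 to 7.68 CPM in lox/lox and from 1.06 to 6.49 CPM in I-KO libraries. Adipoq lay between 0.21 and 2.10 CPM, and the fat cell genes Plin1 and Retn stayed under 1 CPM in all 7.

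The 3 kinase genes with an unadjusted p under 0.05 by limma are shown by the stretch in front of their start, because their differences point in opposite directions. The sequences are those of RefSeq on GRCm38.p6, 5′ to 3′, from the bases before the RefSeq start, without bases that GENCODE M21 places inside the gene. Capitals mark matches on either strand to CACGTG (the E-box) and CCAAT (written ATTGG where it lies on the other strand), and no 2 of these matches overlap.
Pdk2, chr11:95041372-95041621, minus strand: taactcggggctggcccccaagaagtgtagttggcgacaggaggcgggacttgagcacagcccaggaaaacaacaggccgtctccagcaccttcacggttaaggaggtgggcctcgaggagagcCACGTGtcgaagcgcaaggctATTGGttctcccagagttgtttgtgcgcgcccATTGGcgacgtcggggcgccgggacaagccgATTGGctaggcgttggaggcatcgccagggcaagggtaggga
Pdk3, chrX:93832202-93832400, minus strand: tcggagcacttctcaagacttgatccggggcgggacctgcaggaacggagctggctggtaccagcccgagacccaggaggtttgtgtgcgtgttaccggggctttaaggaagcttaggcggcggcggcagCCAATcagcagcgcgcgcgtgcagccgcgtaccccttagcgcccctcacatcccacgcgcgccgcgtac
Pdk4, chr6:5496310-5496528, minus strand: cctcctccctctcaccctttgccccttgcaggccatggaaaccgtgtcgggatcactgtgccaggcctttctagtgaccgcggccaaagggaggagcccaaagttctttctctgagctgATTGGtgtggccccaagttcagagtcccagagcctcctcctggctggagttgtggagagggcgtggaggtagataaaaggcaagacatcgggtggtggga

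The full 250 bases before the RefSeq start were searched for 7 of the 9 genes, all but Angptl4 and Pdp1. CCAAT was found 3 times for Pdk2 and once each for Pdk3 and Pdk4, and it occurs in 33.8% of the 32851 promoter windows in the RefSeq set. CACGTG was found in the windows of Pdk2 and Pdp2, and it occurs in 6.02% of all windows. AGGTCA had 0 matches in the 7 windows, against 14.0% of all windows, and TATAAA also had 0, against 12.4%. GTAAACA, a core of sites bound by FOXO factors, was found for Txnip and occurs in 3.17% of all windows. Such matches describe the letters of the window and were not tested as binding sites.

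Expressed per kilobase of the longest coding transcript, the mean levels of the 9 genes ran from 0.749 CPM per kilobase for Pdp1 in I-KO to 151 for Ucp2 in I-KO duodena. In lox/lox duodena Ucp2 had the highest level at 143 ± 9.21 CPM per kilobase (SD, n = 3), followed by Txnip at 121 ± 18.7, and the ranges of these neighbours overlapped. Pdk2 came next at 38.5 ± 3.32 CPM per kilobase and overlapped no other gene. Then followed Pdk3 with a mean of 12.9 CPM per kilobase, Pdk4 with 10.5, Angptl4 with 9.16 and Pdk1 with 8.04, and each overlapped its neighbour in this order. The phosphatase genes were lowest, with 2.98 ± 0.279 CPM per kilobase for Pdp2 and 0.894 ± 0.176 for Pdp1, and did not overlap each other. In I-KO duodena the levels of Ucp2, from 146 to 157 CPM per kilobase, and of Txnip, from 104 to 142, no longer overlapped. There Pdk4 had a mean level of 4.88 CPM per kilobase and Angptl4 5.02, so that both ranked below Pdk1 at 8.95, and the range of Pdk4 reached down to that of Pdp2.

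None of the 9 genes passed limma's test at an adjusted p of 0.05, which 4 of all 13399 genes did (0.0299%). Of those 4, 3 were higher and 1 was lower in I-KO, and with column totals as the scaling there were 3 higher and 0 lower. The smallest adjusted p of the 9 was 0.830, for Pdk2. At an unadjusted p of 0.05 by limma, 1 of the 9 was higher (2.32% of all genes tested) and 3 were lower in I-KO (2.42% of all genes), together 4 of 9 against 4.74% of all genes. The 4 were Pdk2, Pdk3, Pdk4 and Angptl4. Members and the lists below were chosen with earlier results of these data known. The shares of all genes beside their counts therefore give scale only and are no test. Over the 9 the median log2 fold change, I-KO minus lox/lox on CPM + 1, was -0.01, and over all genes tested it was 0.0017.

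**Figure D1:**
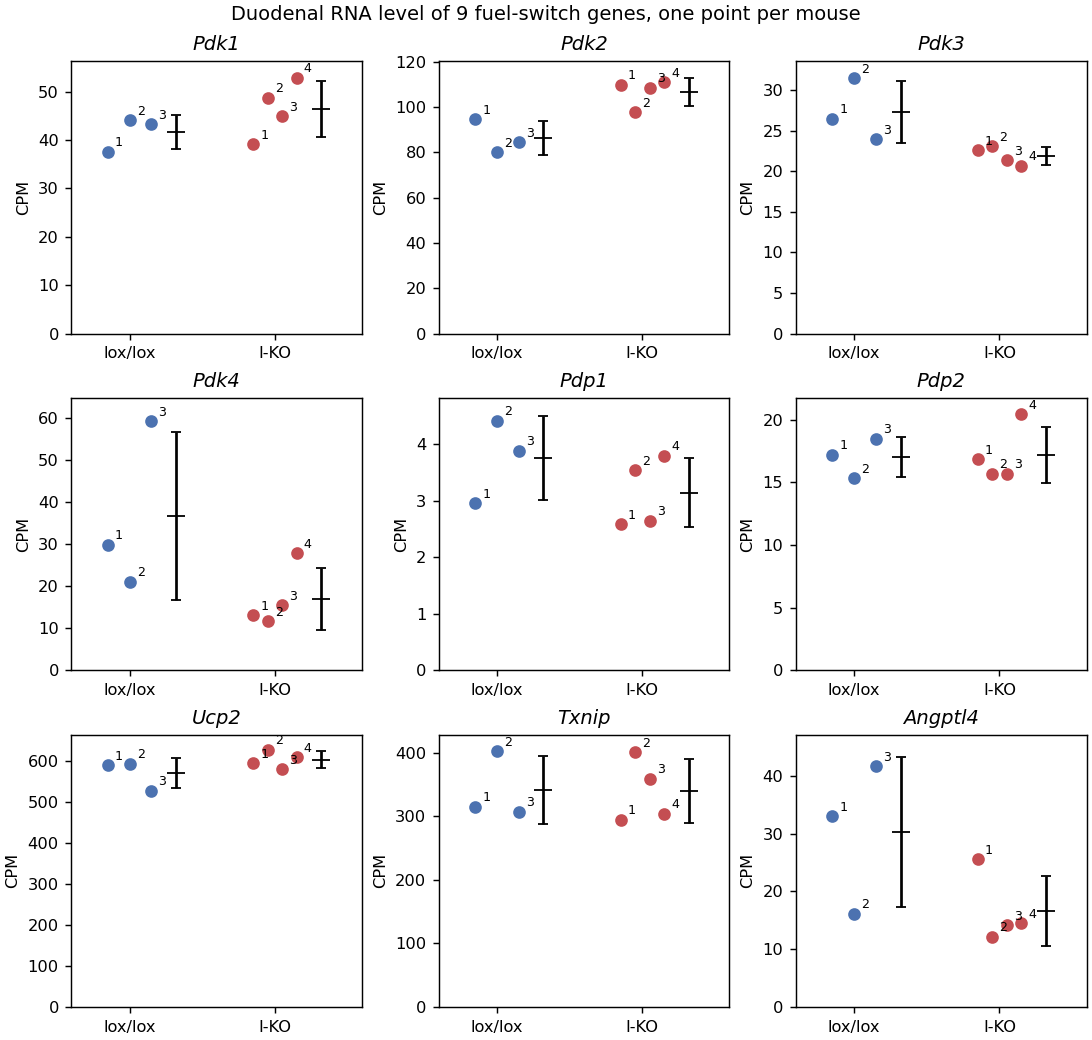
Levels in CPM (vertical axis, from 0) of the 9 genes in each duodenum, with 1 point per mouse labelled by its replicate number, blue for Ppara lox/lox (n = 3) and red for Ppara I-KO (n = 4). Black bars give the mean ± SD. All I-KO points of Pdk2 lie above, and all those of Pdk3 below, the lox/lox points, while Pdk4 and Angptl4 are lower on average with wide spread and 1 I-KO point of each lies among the lox/lox values.

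Pdk2, the most widely expressed kinase isoform, at chr11:95026258-95041354 on GRCm38, was per kilobase the most abundant PDH kinase transcript in every library. It had 94.7, 80.1 and 84.55 CPM in lox/lox mice 1 to 3 and 109.9, 97.7, 109 and 111 CPM in I-KO mice 1 to 4. Every I-KO value lay above every lox/lox value, an arrangement in this direction seen for 2.91% of all genes tested. Pdk2 averaged 86.5 ± 7.46 CPM in lox/lox duodena (SD, n = 3) and 107 ± 6.10 CPM in I-KO duodena (SD, n = 4), 123% of the lox/lox mean. The log2 fold change was 0.30 (95% CI 0.10 to 0.51), with an unadjusted p of 0.00872 and an adjusted p of 0.830 from limma. By exact two-sided permutation of the 7 libraries p was 0.0286, the smallest that 3 against 4 mice allow. Without I-KO 1 and lox/lox 2, the libraries with raised acinar genes, the log2 fold change was 0.24 (unadjusted p = 0.0758 from limma). The groups did not overlap there either, but in that setting 16.3% of all genes did not overlap in one direction or the other.

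Pdk3, an X-linked kinase isoform at chrX:93764607-93832201, differed the other way. Lox/lox mice 1 to 3 had 26.5, 31.5 and 23.97 CPM and I-KO mice 1 to 4 had 22.6, 23.1, 21.4 and 20.7 CPM. The groups did not overlap, as was the case in this direction for 3.28% of all genes tested, although I-KO 2 and lox/lox 3 were less than 1 CPM apart. The I-KO mean of 21.96 ± 1.095 CPM (SD, n = 4) was 80.4% of the lox/lox mean of 27.3 ± 3.83 CPM (SD, n = 3). The log2 fold change was -0.30 (95% CI -0.53 to -0.06, unadjusted p = 0.0188 and adjusted p = 0.954 from limma), and the exact two-sided permutation test again gave 0.0286. It was -0.19 without lox/lox 2, where the unadjusted p from limma was 0.0960, and -0.21 without both libraries with raised acinar genes (unadjusted p = 0.0972).

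Pdk4 at chr6:5483351-5496309, the kinase isoform known to be raised by fasting and by fatty acids, had the largest log2 fold change of the 9 genes with all 7 libraries, while without I-KO 1 (-1.003 for Angptl4 and -0.92 for Pdk4) and without both libraries with raised acinar genes (-1.39 and -1.25) that of Angptl4 was larger. Its values were 29.8, 21.02 and 59.25 CPM in lox/lox mice 1 to 3 and 13.03, 11.6, 15.5 and 27.9 CPM in I-KO mice 1 to 4. The I-KO mice 1 to 3 lay below all lox/lox mice, while the library labelled I-KO 4 lay between lox/lox 2 and lox/lox 1. The highest lox/lox value was 2.82 times the lowest, and the highest I-KO value was 2.40 times the lowest. Pdk4 averaged 36.7 ± 20.0 CPM in lox/lox duodena (SD, n = 3) and 17.0 ± 7.41 CPM in I-KO duodena (SD, n = 4), 46.3% of the lox/lox mean. The log2 fold change was -1.02 (95% CI -1.84 to -0.19, unadjusted p = 0.0210 and adjusted p = 0.954 from limma), and the exact two-sided permutation test gave p = 0.0857. Without lox/lox 3 the log2 fold change was -0.61 (unadjusted p = 0.0863 from limma), and without the library labelled I-KO 4 it was -1.27 (unadjusted p = 0.00372). The unadjusted p was also above 0.05 without I-KO 1 (0.0545) or I-KO 2 (0.0522). Without both libraries with raised acinar genes the groups did not overlap, as for 16.3% of all genes in that setting. The log2 fold change of Pdk4 was then -1.25 (unadjusted p = 0.0166 from limma). Pdk4 is also made by muscle, and 8 smooth muscle markers summed to between 1166 and 1435 CPM in lox/lox and between 1208 and 1678 CPM in I-KO libraries, whose part in the result was not tested. With between 272 and 1506 reads behind each value, counting error was at most 6.06% and the spread between mice set the precision.

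Pdk1, the isoform best known as a target of the hypoxia factor HIF-1, had 37.6, 44.1 and 43.3 CPM in lox/lox mice 1 to 3 and 39.1, 48.75, 44.9 and 52.9 CPM in I-KO mice 1 to 4. The I-KO mice 2 to 4 lay above all lox/lox mice and I-KO 1 lay near the lowest of them. The log2 fold change of 0.15 (95% CI -0.11 to 0.41, unadjusted p = 0.236 from limma) was within the spread between mice. It was 0.08 without lox/lox 1 or without the library labelled I-KO 4, 0.22 without I-KO 1, and 0.27 without both libraries with raised acinar genes.

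**Figure D2:**
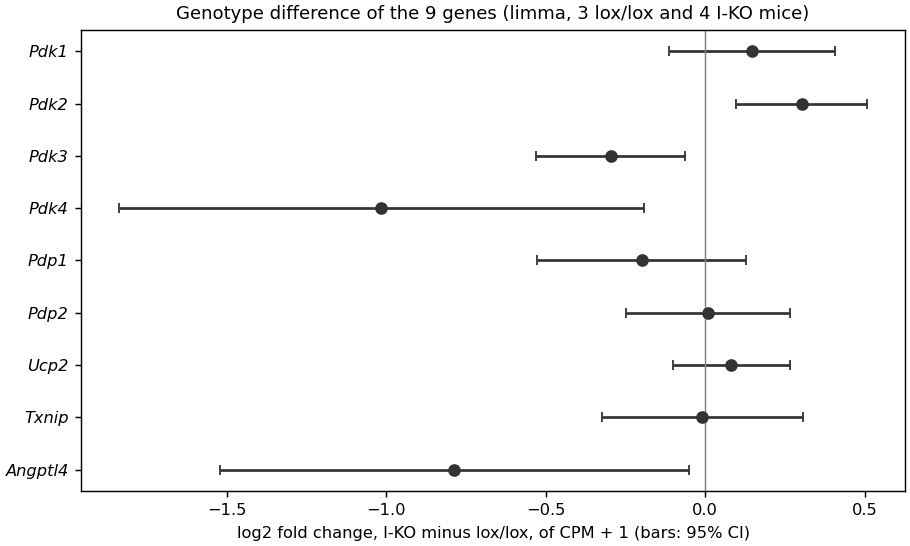
Log2 fold change (horizontal axis, I-KO minus lox/lox on CPM + 1) of each of the 9 genes, with bars for the 95% confidence interval from limma over 3 lox/lox and 4 I-KO mice. The intervals of Pdk2, Pdk3, Pdk4 and Angptl4 lie to one side of 0, and those of Pdk4 and Angptl4 are the widest. None passed the adjusted test.

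The make-up of the kinase transcripts was compared as the share of each isoform in the summed CPM per kilobase of all 4. Pdk2 made up 59.8%, 54.8% and 50.6% in lox/lox mice 1 to 3 and 69.0%, 64.8%, 67.6% and 63.8% in I-KO mice 1 to 4. Each I-KO value was above each lox/lox value, with means of 55.1 ± 4.58% (SD, n = 3) and 66.3 ± 2.40% (SD, n = 4). The Pdk4 share was between 9.27% and 22.9% in lox/lox and between 4.97% and 10.3% in I-KO libraries, and these ranges overlapped through the library labelled I-KO 4. The Pdk3 share was between 15.2% and 22.9% in lox/lox and between 12.7% and 16.3% in I-KO libraries, also with overlap. For Pdk1 it was 11.5 ± 1.42% (SD, n = 3) in lox/lox and 12.5 ± 1.45% (SD, n = 4) in I-KO.

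The summed kinase level was nearly the same in both genotypes, at 70.0 ± 4.63 CPM per kilobase (SD, n = 3) in lox/lox and 71.8 ± 4.22 (SD, n = 4) in I-KO. The shares of a sum are tied to each other, so a lower Pdk4 share raises the others. The ratio of Pdk2 to Pdk4 per kilobase, chosen after the values were seen, was 4.93, 5.91 and 2.21 in lox/lox mice 1 to 3 and 13.08, 13.04, 10.89 and 6.18 in I-KO mice 1 to 4. It was thus lowest in lox/lox 3, and the library labelled I-KO 4 was the I-KO library nearest to the lox/lox range.

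**Figure D3:**
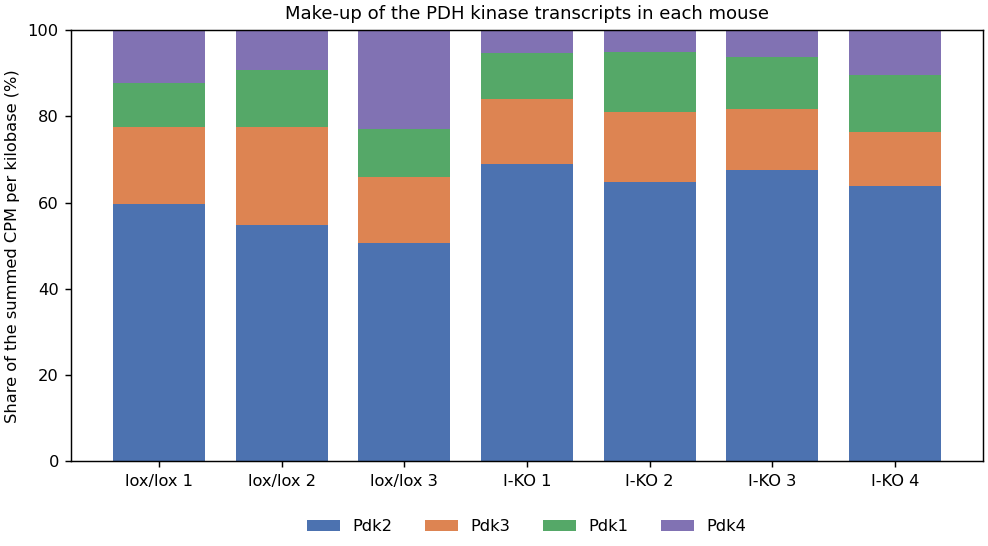
Share (vertical axis, %) of Pdk2, Pdk3, Pdk1 and Pdk4 in the summed CPM per kilobase of the 4 PDH kinases, with 1 bar per mouse. Pdk2 takes between 50.6% and 59.8% in the lox/lox bars and between 63.8% and 69.0% in the I-KO bars, and the Pdk4 segment is largest in lox/lox 3.

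The phosphatases oppose the kinases, and both their genes overlapped between the genotypes. Pdp1, the calcium-stimulated form, had 2.96, 4.42 and 3.89 CPM in lox/lox mice 1 to 3 and 2.59, 3.54, 2.65 and 3.80 CPM in I-KO mice 1 to 4. The log2 fold change was -0.20 (95% CI -0.53 to 0.13, unadjusted p = 0.203 from limma). It was -0.32 without lox/lox 1, where the groups did not overlap (11.9% of all genes in that setting), -0.10 without lox/lox 2, and -0.03 without both libraries with raised acinar genes. Only 50 to 103 reads stood behind each Pdp1 value, with a counting error of 9.85% to 14.1%. Pdp2 had 17.2, 15.3 and 18.5 CPM in lox/lox mice 1 to 3 and 16.8, 15.7, 15.7 and 20.4 CPM in I-KO mice 1 to 4. Its log2 fold change was 0.0086 (95% CI -0.25 to 0.26), and the sign turned with column totals as the scaling (-0.0264). The summed kinases exceeded the summed phosphatases per kilobase 18.9, 17.4 and 17.8 times in lox/lox mice 1 to 3 and 19.9, 18.7, 21.1 and 17.2 times in I-KO mice 1 to 4, with overlap between the groups. On the log2 scale this ratio was 4.17 ± 0.06 (SD, n = 3) in lox/lox and 4.26 ± 0.13 (SD, n = 4) in I-KO.

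Angptl4, at chr17:33773750-33781830, was the other gene with a large and variable difference. Lox/lox mice 1 to 3 had 33.1, 16.2 and 41.7 CPM, and I-KO mice 1 to 4 had 25.6, 12.2, 14.1 and 14.55 CPM. The I-KO mice 2 to 4 lay below all lox/lox mice, and I-KO 1 lay above lox/lox 2. Angptl4 averaged 30.3 ± 12.98 CPM in lox/lox duodena (SD, n = 3) and 16.6 ± 6.07 CPM in I-KO duodena (SD, n = 4), 54.8% of the lox/lox mean. The log2 fold change was -0.79 (95% CI -1.52 to -0.05, unadjusted p = 0.0386 and adjusted p = 0.954 from limma), and the exact two-sided permutation test gave p = 0.143.

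Both libraries that blur this separation, I-KO 1 and lox/lox 2, are those with raised acinar genes, whose part in the result was not tested. Without them the log2 fold change of Angptl4 was -1.39 (unadjusted p = 2.53e-05 and adjusted p = 0.0670 from limma, the smallest adjusted p among the 9 genes in any alternative), a choice made after the values were seen. The difference was smaller without lox/lox 3, at -0.51 (unadjusted p = 0.160 from limma), and the unadjusted p was above 0.05 without any of lox/lox 1, I-KO 2, I-KO 3 or the library labelled I-KO 4 as well (0.0702 to 0.1096). Angptl4 is also made by fat cells, and the 7 adipocyte markers in the table summed to 301.5, 275 and 304 CPM in lox/lox mice 1 to 3 and 314, 272, 331 and 251 CPM in I-KO mice 1 to 4, whose part in the result was not tested. Cidec and Lipe were the largest parts of these sums, and other markers ran differently. Lox/lox 2 had the lowest lox/lox sum but held the highest lox/lox value of 5 of the 7 markers. The library labelled I-KO 4 had the lowest I-KO sum but the highest I-KO value of 4 of the 7. Cfd had 1.14, 7.68 and 5.15 CPM in lox/lox mice 1 to 3. In I-KO mice 1 to 4 it had 2.97, 4.05, 1.06 and 6.49 CPM.

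Pdk4 and Angptl4 varied more between mice of the same genotype than most genes. Their residual SD of 0.62 and 0.55 on the log2 scale stood at percentiles 99.3 and 99.0 of the 13399 genes tested, whose median was 0.14. Both were highest in lox/lox 3, but they parted in other libraries, since Pdk4 was low and Angptl4 high in I-KO 1 and the reverse was true for the library labelled I-KO 4.

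Ucp2 and Txnip, the most abundant of the 9, were close to equal between the genotypes. Ucp2 had 590, 593 and 528 CPM in lox/lox mice 1 to 3 and 595, 628, 581 and 609 CPM in I-KO mice 1 to 4, with only lox/lox 3 below the rest. Its log2 fold change was 0.08 (95% CI -0.10 to 0.26, unadjusted p = 0.336 from limma), and its residual SD of 0.07 was at percentile 9.42 of all genes. Txnip had 315, 402 and 307 CPM in lox/lox mice 1 to 3 and 294, 401, 359 and 304 CPM in I-KO mice 1 to 4, so that both genotypes spanned nearly the same range. Its log2 fold change was -0.0085 (95% CI -0.32 to 0.31, unadjusted p = 0.953 from limma). Txnip shares 606 exon bases with the antisense gene Gm15441, which lies under the limit for testing with 0.12 to 0.69 CPM, at most 0.192% of the Txnip value in a library, and Ucp2 shares 305 with Dnajb13 on the other strand. Strand use in counting is not given in the sources used here, so reads of these pairs may not have been told apart.

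Of 6 genes for the PDH complex and its phosphatase regulator, 5 were lower and 1 was higher in I-KO, at a median log2 fold change of -0.06, and limma's p was under 0.05 for 0 of them, adjusted or not. The smallest unadjusted p were those of Dld, the dihydrolipoamide dehydrogenase (171 ± 1.09 CPM in lox/lox, n = 3, and 159 ± 18.7 CPM in I-KO, n = 4, SD), and of the phosphatase regulator Pdpr (10.4 ± 1.75 and 12.0 ± 2.95 CPM). Of 7 genes for pyruvate import, lactate and pyruvate carboxylation, 1 passed the unadjusted p by limma and was higher in I-KO, as 2.32% of all genes did. This was Pcx, pyruvate carboxylase, with 98.7 ± 10.3 CPM in lox/lox duodena (SD, n = 3) and 126 ± 13.2 CPM in I-KO duodena (SD, n = 4), without overlap (log2 fold change 0.35, unadjusted p = 0.0102 and adjusted p = 0.845 from limma). Mpc1, a subunit of the mitochondrial pyruvate carrier, was at 75.9 ± 0.896 and 82.3 ± 4.63 CPM, also without overlap (highest lox/lox value 76.83 and lowest I-KO value 76.99 CPM, log2 fold change 0.11, unadjusted p = 0.185 from limma). Groups did not overlap in this direction for 2.91% of all genes tested.

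Of 5 uncoupling protein relatives, 3 could be tested, and Ucp1 and Ucp3 were not in the table used here. Slc25a30, a mitochondrial carrier, had 4.47 ± 0.430 CPM in lox/lox (SD, n = 3) and 3.64 ± 0.334 CPM in I-KO (SD, n = 4), without overlap (log2 fold change -0.24, unadjusted p = 0.0302 and adjusted p = 0.954 from limma). The lowest lox/lox value was 4.12 CPM and the highest I-KO value 4.05 CPM, and 3.28% of all genes did not overlap in this direction. Slc25a14 had 6.97 ± 0.661 and 7.34 ± 1.01 CPM. Among 8 genes of the thioredoxin system and the arrestin-domain family, 4 were higher, 4 lower and 0 passed the unadjusted p by limma. Their log2 fold changes lay between -0.16 for Arrdc3, an arrestin-domain relative of Txnip, and 0.11 for the mitochondrial thioredoxin reductase Txnrd2.

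Genes that sense or handle sugar were mostly higher in I-KO, within the limits of the test. Of 9 such genes 8 were higher in I-KO, at a median log2 fold change of 0.20 (0.0017 over all genes), and 4 passed the unadjusted but 0 the adjusted p by limma, all 4 of them higher, against 2.32% of all genes. G6pc, the catalytic subunit of glucose-6-phosphatase, had 98.5 ± 24.7 CPM in lox/lox (SD, n = 3) and 134 ± 10.9 CPM in I-KO (SD, n = 4), without overlap, as for 2.91% of all genes in this direction (log2 fold change 0.47, unadjusted p = 0.0209 from limma). It was 0.24 without lox/lox 2 and 0.19 without both libraries with raised acinar genes. Slc2a5, the fructose transporter, had 154 ± 29.2 and 193 ± 7.97 CPM (log2 fold change 0.34, unadjusted p = 0.0220 from limma), where the highest lox/lox value of 185.08 and the lowest I-KO value of 185.23 CPM were almost equal, and without lox/lox 3 the log2 fold change was 0.21. Of the 10 enterocyte and duodenum markers 8 were also higher in I-KO, at a median log2 fold change of 0.09, and the part of enterocyte content was not tested.

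Among angiopoietin-like proteins, lipoprotein lipase and its partners 7 genes were tested. Gpihbp1, which holds lipoprotein lipase on capillary walls, was low in both groups, at 0.69 to 0.86 CPM in lox/lox and 1.06 to 1.26 CPM in I-KO libraries. It was above 1 CPM in 0 lox/lox and all 4 I-KO libraries, so it entered the test only through the group where it was higher, and no test is given for it. Of the other 6 genes, 3 were higher and 3 lower in I-KO, and 0 passed the unadjusted p by limma. Endothelial markers, of the cells that make Gpihbp1, summed to between 111 and 131 CPM in lox/lox and between 126 and 158 CPM in I-KO libraries, and their part in the result was not tested. Angptl6 was at 1.66 ± 0.163 and 1.94 ± 0.232 CPM.

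The list nearest to PPARα held 20 genes of fatty acid catabolism and handling, of which 19 could be tested. Of the 19, 18 were lower in I-KO, at a median log2 fold change of -0.42, and 12 passed the unadjusted p, all of them lower, against 2.42% of all genes. Of these 12, the fatty acid hydroxylase gene Cyp4a10 was above 1 CPM in 3 lox/lox and 0 I-KO libraries and so entered the test only through the group where it was higher. Without it 17 of 18 were lower, at a median of -0.42, and 11 passed the unadjusted p by limma. Because the list was chosen with earlier results of these data known, its counts are descriptive. The 1 gene past the adjusted p was Me1, malic enzyme, with 37.2 ± 6.66 CPM in lox/lox (SD, n = 3) and 14.7 ± 2.33 CPM in I-KO (SD, n = 4; log2 fold change -1.28, adjusted p = 0.0456 from limma, 0.0191 to 0.243 over the alternatives). The adjusted p of Me1 was above 0.05 when any of lox/lox 1, lox/lox 3, I-KO 1, I-KO 2 or I-KO 3 was left out. By limma it was also above 0.05 with column totals (0.0762), a pseudocount of 0.5 (0.0722) and the replicate block (0.184). Without both libraries with raised acinar genes it was 0.0796. Of the 19 genes, 14 were highest of all libraries in lox/lox 3 (13 of 18 without Cyp4a10), as Pdk4 and Angptl4 were. Set beside the log2 fold changes of this list, that of Pdk4 (-1.02) lay between those of Me1 and Slc25a20 (-0.83), and that of Angptl4 (-0.79) between those of Acot2 (-0.82) and Cpt1a (-0.72).

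**Figure D4:**
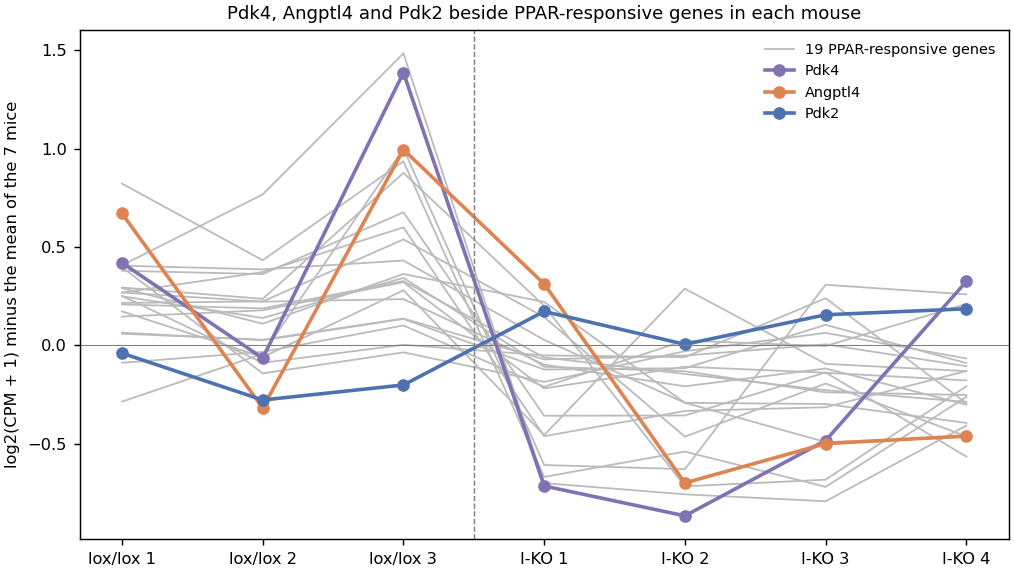
Log2(CPM + 1) minus the mean over the 7 mice (vertical axis) for Pdk4, Angptl4 and Pdk2 in colour and for 19 PPAR-responsive genes in grey, in each mouse, with a dashed line between the genotypes. Pdk4 and Angptl4 peak in lox/lox 3 as 14 of the 19 grey lines do (13 of 18 without Cyp4a10). Pdk4 alone of these 3 genes is low in I-KO 1 and raised in the library labelled I-KO 4 relative to I-KO 1 to 3.

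Of 10 PPAR and partner receptor genes 1 passed the unadjusted p by limma and was higher in I-KO, as 2.32% of all genes did. This was Pparg, with 14.8 ± 2.57 CPM in lox/lox (SD, n = 3) and 19.1 ± 1.17 CPM in I-KO (SD, n = 4). The log2 fold change of Pparg was 0.36 (unadjusted p = 0.0155 from limma), and 0.21 without lox/lox 3. The corepressor Ncor1 had 307 ± 45.8 and 275 ± 16.2 CPM. Of 14 tested genes that respond to fasting or glucocorticoids 11 were higher (50.6% of all genes were), at a median log2 fold change of 0.16. Among them 2 passed the unadjusted p by limma, both higher in I-KO, as 2.32% of all genes did. These were Zbtb16, a zinc finger factor induced by glucocorticoids, with 1.65 ± 0.372 and 2.54 ± 0.348 CPM (unadjusted p = 0.00656), and Foxo4, with 33.1 ± 3.38 and 38.5 ± 0.925 CPM (unadjusted p = 0.0349), both without overlap, as for 2.91% of all genes in this direction. Among 10 hypoxia-responsive genes, read beside Pdk1, the median log2 fold change was 0.03. Ankrd37 had 15.3 ± 3.97 and 22.1 ± 4.64 CPM (unadjusted p = 0.0322 from limma), and Hk2, hexokinase 2, had 22.9 ± 4.06 and 18.5 ± 1.98 CPM (unadjusted p = 0.0525 from limma).

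**Figure D5:**
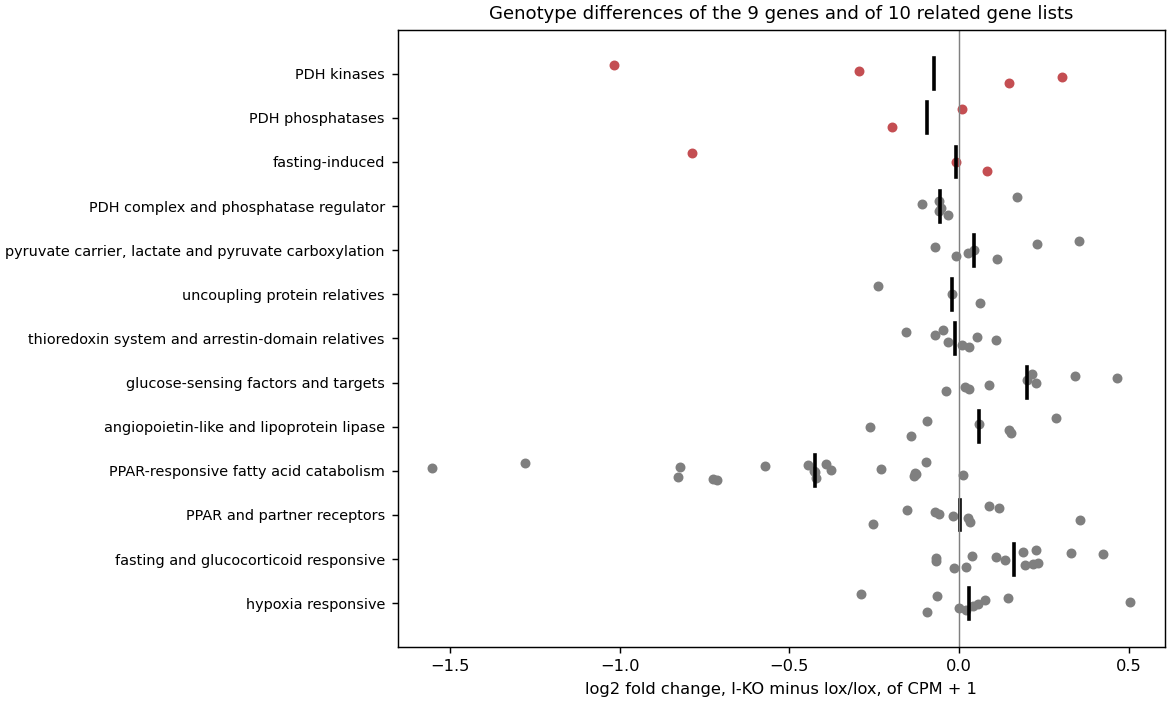
Log2 fold changes (horizontal axis, I-KO minus lox/lox on CPM + 1) of the 9 genes in red, by role, and of the tested genes of 10 related lists in grey, with 1 point per gene and a black bar at the median of each list. The medians of most lists lie near 0, that of the PPAR-responsive list is -0.42, and Pdk4 and Angptl4 lie within the range of that list.

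The genes whose profiles over the 7 libraries were most like those of the 3 most variable of the 9 genes were found by the root mean square difference of centred log2 values, over 13398 genes. For Pdk4, with an SD of 0.79 over the 7 libraries, they were Acaa1b (0.34), Aldh1a1 (0.34) and Retsat (0.35). For Angptl4, with an SD of 0.66, they were Slc6a3 (0.23), Acot2 (0.29) and Acot4 (0.34). For Pdp1, with an SD of 0.23, they were Flrt3 (0.05), Etv1 (0.05) and Dcaf4 (0.06). Acaa1b shows the likeness to Pdk4, with 41.5, 47.7 and 83.3 CPM in lox/lox mice 1 to 3 and 28.9, 23.9, 24.7 and 32.0 CPM in I-KO mice 1 to 4, highest in the same library. Slc6a3 shared with Angptl4 the high values in lox/lox 1, lox/lox 3 and I-KO 1, with 5.18, 1.97 and 5.50 CPM in lox/lox mice 1 to 3 and 4.60, 2.28, 2.44 and 2.31 CPM in I-KO mice 1 to 4.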

How the data were processed

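Duodenal RNA of 3 Ppara lox/lox and 4 Ppara I-KO mice was sequenced as 100 base single reads from stranded mRNA libraries. The submitters' processing notes name FastQC 0.11.2, TopHat2 2.0.13, Picard 1.80, HTSeq 0.6.1, edgeR and mm10. The authors deposited 1 table of signal values, counts of each gene scaled to an adjusted library size (CPM) with 2 decimals, and 1 row without a gene name was dropped. Fewer than 95% of low values lay within 0.1 of a whole read in 5 of 7 libraries, so no count test was run. Genes above 1 CPM in at least 3 libraries were compared by limma 3.58.1 (R 4.3.3) on log2(value + 1), which understates changes of low genes, in a model of genotype alone. P-values were two-sided and adjusted by Benjamini-Hochberg over all 13399 genes, with a threshold of 0.05. Single genes were also tested by exact permutation over the 35 possible splits. The fit was tested on simulated data. Shares of PDH kinases were given without a test.

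Loci, lengths and overlaps come from GENCODE M21 on GRCm38. Promoter windows come from RefSeq on GRCm38.p6. Members and lists were chosen with earlier results of these data known. All 9 members are named, and of each list the genes past the adjusted threshold or otherwise the 2 with the smallest unadjusted p. Likeness was searched for the 3 members with the largest SD. The labels call the libraries biological replicates. The alternatives were other scalings, no filter, another pseudocount, an intensity trend, the replicate number as a block, another threshold, other lengths and each library left out. Sample weights and leaving out both libraries with raised acinar genes were chosen after the values were seen. Tables were made with pandas 2.3.3 in Python 3.11.15.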

Additional observations from a re-analysis of the deposited data

Results flagged for a closer look

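In the 4 I-KO libraries, 51 quantities were searched for a library far from the others, of which 2 stood out, where chance gives about 5%. The sum of 12 pancreatic acinar genes was 405 CPM in I-KO 1, against 40.8 CPM in the next highest I-KO library. This gap was 0.960 of the span of the 4 values. Slc6a3, found for its likeness to Angptl4, had 4.60 CPM in I-KO 1, against 2.44 CPM in the next highest. Here the gap was 0.931 of the span. None of the 9 genes stood out in this way, and Pdk2 (I-KO 2) and Angptl4 (I-KO 1) came nearest, each with a gap of 0.823. Slc6a3 was picked for its likeness to Angptl4 and many of the quantities are tied to each other, so the 5% gives scale only.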

How the results depend on the processing

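With 3 and 4 mice, the median half-width of the 95% confidence interval over all genes was 0.24 on the log2 scale. Smaller changes in a single gene could mostly not be told from 0 even without adjustment. The adjusted threshold needed larger changes, and Slc25a20 at -0.83 (adjusted p = 0.116 from limma) did not pass it. Under every alternative computed, 0 of the 9 genes were past the adjusted threshold of 0.05, and 0 were past 0.1 in the reported fit, and the count of all genes passing was within 1.5 times the main count except with sample quality weights (12). The edgeR and DESeq2 tests on counts that had been planned were not run. The limit was 95% of low values within 0.1 of a whole read, which 5 of 7 libraries missed (lowest 78.9%). The values carry 2 decimals and 1 read was worth 0.0393 to 0.0530 CPM, and the part of rounding in this share was not tested. The number of the 9 at an unadjusted p of 0.05 by limma was 2 to 3 with each library left out in turn (3.22% to 6.84% of all genes), 2 without lox/lox 3 or I-KO 2, and 2 without both libraries with raised acinar genes (3.27% of all genes). The number without overlap was 2 to 4 with each library left out (9.25% to 15.8% of all genes), 4 without lox/lox 2 (10.9%) or without I-KO 1 (10.2%), and 5 without both libraries with raised acinar genes (16.3% of all genes; Pdk1 and Pdk2 higher, Pdk3, Pdk4 and Angptl4 lower).

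The sign of 4 small differences turned. For Pdp2 the log2 fold change was -0.0264 with column totals, -0.0738 with the replicate block, -0.0537 without both libraries with raised acinar genes, and between -0.0738 and 0.0677 with each library left out. For Txnip it was 0.0408 with the replicate block, 0.18 without both libraries with raised acinar genes, and between -0.0920 and 0.115 with each library left out. For Slc25a14 it was -0.0119 with sample quality weights and between -0.0087 and 0.111 with each library left out, and for Arrdc3 it was 0.0058 with the weights. The cause was not tested. Among 435 single-gene values under alternatives, 412 kept their direction and their side of the threshold.

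Of the 3 same-numbered pairs of mice, 1 deviated together by more than 0.1 (correlations of -0.01, 0.18 and -0.0092), so the numbers were not taken as pairs and the replicate block, which uses only 3 mice of each genotype, was kept as an alternative. With it 3 of all genes and 0 of the 9 passed the adjusted p by limma, and 5 of the 9 passed the unadjusted p, against 7.58% of all genes. The gene added was Pdp1 (unadjusted p = 0.0303 from limma). The Pdk2 share differed between genotypes by 9.0 to 13.6 percentage points and the log2 ratio of kinases to phosphatases by 0.03 to 0.14 over the alternatives.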
